A study of Drosophila melanogaster with 2 samples.

Results

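Distal intergenic peaks are entries of the thresholded peak set whose summit, the position of highest enrichment in the peak, lies over 1000 bp from every annotated transcription start site (TSS) and inside no annotated gene. Of 6054 entries in the set made from both libraries, 679 met this rule (11.2%, Wilson 95% interval 10.4 to 12). The rule used annotation only and no measured value. The study was a chromatin immunoprecipitation (ChIP-seq) of Bicoid in whole Drosophila melanogaster embryos of mixed sex, aged 0 to 24 h, with 2 libraries from separate biosamples, named replicates 1 and 3 by the labels. All embryos came from the strain 1T-GFP, a transgenic line that stably expresses bcd with GFP fused to its C terminus, and the precipitation used an antibody against GFP on chromatin sonicated to 200 to 800 bp. The labels give 1 group and no other genotype, treatment or time, so no conditions were compared, and they do not say which promoter drives the fusion protein or whether the line keeps untagged bcd. Pooled stages and tissues mean that a peak cannot be assigned to a stage or a cell type. A control experiment named in the labels was not analysed here.

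Bicoid is a homeodomain transcription factor whose RNA is laid down by the mother at the anterior pole of the egg, and whose protein gradient patterns the head and thorax of the early embryo. It binds sites with the core TAATCC in enhancers, stretches of DNA that raise transcription of a gene from a distance and often lie between genes or in introns. Intergenic DNA in flies also holds insulators, Polycomb response elements and unannotated promoters, and peaks of many factors in whole embryos fall on the same open regions.

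The sequences of 5 of the 8 distal intergenic peaks with the highest signal show what the strongest summits look like. Each is the summit base with 100 bp on either side, from the dm6 genome (RefSeq Release 6 sequence), and runs of at least 8 A or T letters are in capitals.
chr2L:1638690-1638890 (plus strand, between lncRNA:CR44603 and lncRNA:CR45695): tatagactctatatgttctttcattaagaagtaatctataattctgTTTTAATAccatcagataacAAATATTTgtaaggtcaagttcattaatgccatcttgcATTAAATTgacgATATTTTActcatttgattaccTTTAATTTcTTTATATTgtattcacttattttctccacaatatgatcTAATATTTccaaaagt
chr3R:14053498-14053698 (plus strand, between tRNA:Ser-GCT-2-2 and foxo): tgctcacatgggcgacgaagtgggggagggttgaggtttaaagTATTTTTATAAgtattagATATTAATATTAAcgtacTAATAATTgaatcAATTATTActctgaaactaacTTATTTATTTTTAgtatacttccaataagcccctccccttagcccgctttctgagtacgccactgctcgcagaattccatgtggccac
chr2L:1643369-1643569 (plus strand, between lncRNA:CR44603 and lncRNA:CR45695): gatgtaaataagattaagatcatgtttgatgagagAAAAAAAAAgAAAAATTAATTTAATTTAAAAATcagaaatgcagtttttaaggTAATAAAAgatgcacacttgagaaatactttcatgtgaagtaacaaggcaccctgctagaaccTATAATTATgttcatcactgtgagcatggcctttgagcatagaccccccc
chr2L:2202321-2202521 (plus strand, between COX7AL2 and CG31668): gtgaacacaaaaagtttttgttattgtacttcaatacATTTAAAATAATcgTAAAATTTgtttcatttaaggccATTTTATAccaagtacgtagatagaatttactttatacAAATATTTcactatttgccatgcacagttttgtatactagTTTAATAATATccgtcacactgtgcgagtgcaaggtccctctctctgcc
chr3L:10739891-10740091 (plus strand, between NijA and CG43245): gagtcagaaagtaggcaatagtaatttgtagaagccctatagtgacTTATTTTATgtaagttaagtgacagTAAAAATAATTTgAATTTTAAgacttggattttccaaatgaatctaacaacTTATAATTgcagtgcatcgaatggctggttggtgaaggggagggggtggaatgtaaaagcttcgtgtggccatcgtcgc
All 5 held such runs, between 4 and 7 in each, and none of them held TAATCC. The A+T share of these windows ran from 61.7% to 75.6%.

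For 4 of the 6 strongest distal intergenic peaks that did hold TAATCC, the core of a Bicoid site, the window is shown with that word in capitals (the summit is the base in the middle, as above).
chr3L:19140471-19140671 (plus strand, between CG14082 and fz2): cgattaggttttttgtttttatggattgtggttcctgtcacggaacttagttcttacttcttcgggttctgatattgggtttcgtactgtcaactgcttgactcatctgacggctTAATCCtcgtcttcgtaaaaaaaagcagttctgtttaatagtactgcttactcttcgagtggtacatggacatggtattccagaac
chr3R:31687050-31687250 (plus strand, between lncRNA:CR44091 and lncRNA:CR45564): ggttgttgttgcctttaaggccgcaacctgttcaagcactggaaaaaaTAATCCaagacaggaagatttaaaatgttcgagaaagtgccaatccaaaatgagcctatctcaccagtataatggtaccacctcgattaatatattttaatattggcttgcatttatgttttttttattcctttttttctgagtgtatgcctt
chr2L:9490895-9491095 (plus strand, between lncRNA:CR43769 and Gdi): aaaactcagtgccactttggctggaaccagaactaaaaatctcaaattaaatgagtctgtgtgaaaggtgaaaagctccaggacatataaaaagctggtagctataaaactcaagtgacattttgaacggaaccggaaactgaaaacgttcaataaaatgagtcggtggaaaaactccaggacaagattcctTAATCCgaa
chr2L:14706302-14706502 (plus strand, between osp and CG15282): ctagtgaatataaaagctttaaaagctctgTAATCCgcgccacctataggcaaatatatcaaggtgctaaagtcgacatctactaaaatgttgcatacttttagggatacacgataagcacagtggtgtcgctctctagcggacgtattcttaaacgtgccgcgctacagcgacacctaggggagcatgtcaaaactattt
Their signals were 572.8, 437.9, 409.7 and 360.6, which gave them ranks 38, 76, 88 and 114 among the 679. The word lay nearest the summit in the window next to fz2 and nearest an edge in that next to Gdi.

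A different word, CACTGAGA, recurred at distal intergenic summits, and it was picked after the 8-letter words of these windows had been counted. For 5 of the strongest peaks that hold it, 98 bp are shown on the strand on which it reads CACTGAGA, from 10 bases before the word to 80 after it, with the word in capitals.
chr2L:3832503-3832600 (minus strand, between slp1 and slp2): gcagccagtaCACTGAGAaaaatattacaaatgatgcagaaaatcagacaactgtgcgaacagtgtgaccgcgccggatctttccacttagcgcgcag
chr2L:14502752-14502849 (minus strand, between lncRNA:CR45303 and lncRNA:CR45693): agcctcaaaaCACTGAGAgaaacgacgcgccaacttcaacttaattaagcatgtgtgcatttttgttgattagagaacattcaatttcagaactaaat
chr3R:16497592-16497689 (plus strand, between Cad89D and Gr89a): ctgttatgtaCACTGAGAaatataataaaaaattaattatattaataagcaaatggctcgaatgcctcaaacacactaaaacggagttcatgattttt
chrX:21594081-21594178 (minus strand, between lncRNA:CR44711 and GCS2alpha): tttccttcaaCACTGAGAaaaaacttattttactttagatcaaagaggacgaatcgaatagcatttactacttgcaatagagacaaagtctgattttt
chr3L:762512-762609 (minus strand, between hng3 and tRNA:Ile-TAT-1-1): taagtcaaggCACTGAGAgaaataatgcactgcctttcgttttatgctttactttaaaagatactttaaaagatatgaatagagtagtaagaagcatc
In 4 of these the summit fell within the printed bases after the word, at base 77 next to slp1, base 63 next to lncRNA:CR45303, base 82 next to GCS2alpha and base 96 next to hng3. The peak between Cad89D and Gr89a had its summit on the other side of the word. In the same 4, and not in that peak, the word was followed by A or G and then AAA.

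Another recurrent word, AGATGGCG, resembles the core of sites known for the fly insulator protein CTCF. It is shown in capitals with 20 bases on either side, on the strand on which it reads AGATGGCG, for 2 of the strongest peaks that hold it.
chr3R:14391429-14391476 (minus strand, between soti and cv-c): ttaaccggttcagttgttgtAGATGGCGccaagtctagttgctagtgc
chr3R:28672402-28672449 (minus strand, between Sid and snu): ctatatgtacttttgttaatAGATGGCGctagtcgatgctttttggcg
Their pooled signals were 573 and 511.4.

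The peak lists hold no read counts, so the depth of the libraries is unknown, and weak enrichment and shallow sequencing cannot be told apart. Intervals below cover counting error only, and entries of a list are not independent replicates. Because there is 1 group, no p-value was computed. The signal is the authors' score for each peak and was read only within a list, so the values of a peak in the replicate lists stand side by side without a fold. The set of 6054 entries covers 6000 distinct intervals, since some broad intervals are listed once for each summit, and the 679 distal intergenic entries cover 674. The 2 libraries differ in which entries are strong, as described below for the distal intergenic peaks.

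Distal intergenic sequence made up 35.7 Mb, or 26.1% of the 137 Mb of the chromosome arms, and it held 11.2% of the peak set. The other entries lay within 500 bp of a TSS (2848, 47.0%), 500 to 1000 bp from one (631, 10.4%), or farther away inside a gene (1896, 31.3%). The distal intergenic share was lower among strong entries. It was 3 of the strongest 100 (3.00%, 1.03 to 8.45), 7.40% of the strongest 1513 (6.19 to 8.83) and 14.3% of the weakest 1513 (12.6 to 16.1), and the intervals of the last pair do not overlap. The median signal of distal intergenic peaks was 191.8 (quartiles 152.5 and 295.6), close to the 199 of peaks deep inside genes (152.7 and 307.6) and below the 254.2 of peaks within 500 bp of a TSS (172.6 and 434). In the pooled list of 30000 entries, which was made with a relaxed threshold and includes background, the share was 20.8% (20.3 to 21.3).

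**Figure D1:**
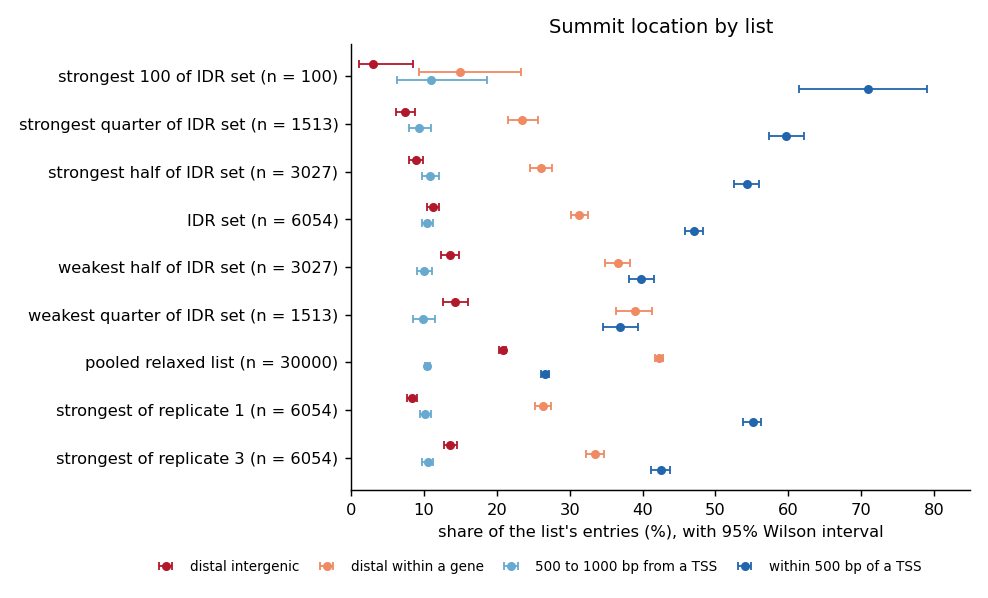
Share of entries in each location class (x axis, percent, with 95% Wilson intervals) for 9 lists (y axis, with the number of entries). Distal intergenic entries (dark red) go from 3.00% of the strongest 100 to 14.3% of the weakest 1513, and from 8.31% in the replicate 1 list to 13.6% in the replicate 3 list, while entries within 500 bp of a TSS (dark blue) go the other way.

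Distal intergenic peaks ranked better in replicate 3 than in replicate 1. In a list of the 6054 strongest entries of each library, they made up 8.31% in replicate 1 (503 entries, 7.64 to 9.03) and 13.6% in replicate 3 (822 entries, 12.7 to 14.5). A peak of the set is called strong in a library where it overlapped, by at least 1 bp, any of these 6054 entries. Of the 679, 432 were strong in replicate 1 (63.6%, 59.9 to 67.2), against 82.0% of all entries of the set. In replicate 3, 619 were strong (91.2%, 88.8 to 93.1), against 86.6% of all entries. In both libraries, 377 were strong (55.5%, 51.8 to 59.2), against 69.2% of all entries, and 22.0 percentage points below peaks within 500 bp of a TSS (Newcombe 95% interval of the difference -26.1 to -18.0). Compared with peaks deep inside genes, the difference for both libraries was -5.82 points (-10.2 to -1.51). Peaks strong in replicate 3 only were 242 (35.6%), against 7.02% of peaks within 500 bp of a TSS, and peaks strong in replicate 1 only were 55 (8.10%, against 15%). The median rank of the overlapping entry was 4549 in replicate 1 and 3043 in replicate 3. Of 648 distal intergenic peaks with an entry in both relaxed lists, 459 (70.8%) had the better rank in replicate 3. The same held for 61.8% of such peaks deep inside genes and for 48.8% of such peaks in the whole set. The cause of the difference between the libraries was not tested.

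**Figure D2:**
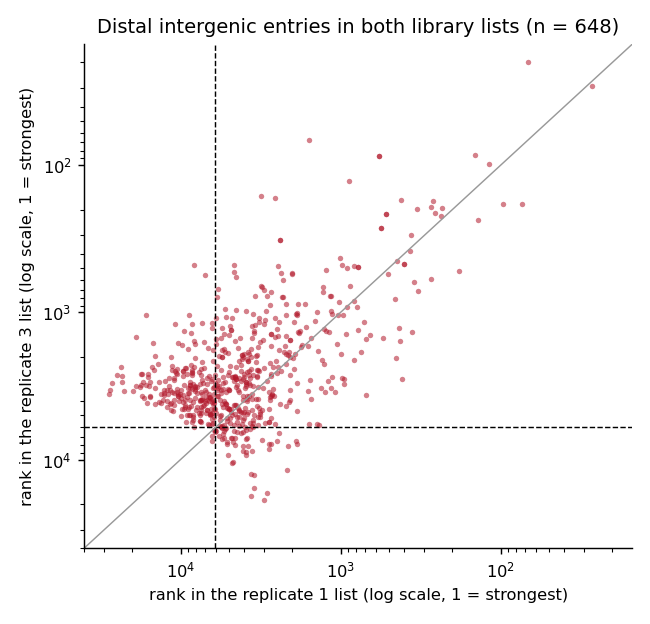
Rank of the strongest overlapping entry in the replicate 1 list (x axis) and the replicate 3 list (y axis), both on log scales with rank 1 to the right and top, for 648 distal intergenic peaks. Dashed lines mark rank 6054 and the grey line equal ranks; 459 points lie above the grey line, with the better rank in replicate 3.

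The 20 distal intergenic peaks with the highest signal were strong in both libraries, with pooled signals from 816.4 to 2146, and 15 of the 20 had the better rank in replicate 3. The highest (signal 2146, rank 26 of all entries) lay 12769 bp from lncRNA:CR44603 and 8142 bp from lncRNA:CR45695, with a signal of 1041 in replicate 1 and 1117 in replicate 3. Another in the same gap (1279.5, rank 5 of the 679) lay 3463 bp from lncRNA:CR45695, and a peak on the other side of that RNA (844.1) lay 1827 bp from chinmo, which encodes a BTB zinc finger protein of neuronal timing and stem cell maintenance.

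Polycomb genes bordered several of the strongest peaks. The one of rank 2 (2049) lay 27463 bp from Su(z)2 and 9321 bp from CG13323, and those of ranks 6 and 17 (1110 and 887.4) lay 7806 and 6628 bp from Psc, on the side of CG13321. Psc and Su(z)2 are neighbouring paralogs that encode subunits of Polycomb repressive complexes. The signals of the peak next to Su(z)2 were 744.3 in replicate 1 and 1312 in replicate 3, and those of the stronger Psc peak were 294.2 and 821.

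Genes of other kinds flanked the remaining peaks of the 20. The peak of rank 3 (1404) sat in a gap of 1340 bp between blw, which encodes an ATP synthase subunit, and CycB, the mitotic cyclin B. The peak of rank 4 (1340) lay 3347 bp from foxo, the transcription factor held back by insulin signalling, and 8992 bp from tRNA:Ser-GCT-2-2. Among these 20, the ranks in the libraries lay farthest apart for the peak between COX7AL2 and CG31668 (1068 pooled), with 165.3 in replicate 1 (rank 1578) and 902.3 in replicate 3 (rank 67). The peaks of ranks 8 and 9 (1059 and 1053.5) lay in the gap between NijA, a cell surface protein gene, and CG43245, described below. Short gaps held the peaks between Sol1 and Cyp9f2 (1036) and between CG34342 and Lkr, the leucokinin receptor (901.9), at 200 and 270 bp from the nearer gene. The rest were flanked by Hacd1 and Rh5, a rhodopsin of blue-sensitive photoreceptors (1036), lncRNA:CR45731 and Cpr76Ba, a cuticle protein (1035), lncRNA:CR45641 and lncRNA:CR45643 (993.6), CG43439 and bin, a forkhead factor of the visceral mesoderm (980.6), slp1 and slp2 (921.4), Glut3 and lncRNA:CR45750 (871.5), and dpr17, an immunoglobulin-domain surface protein of neurons, and CG4702 (816.4).

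Most distal intergenic peaks were a few kb from a TSS. The median distance was 3722 bp (quartiles 2008 and 7047), 247 of the 679 were over 5000 bp away and 18 over 20000 bp. The nearer gene edge, which may be a transcript end, was at a median of 2629 bp, and 115 summits were under 1000 bp from it. The farthest summit was 37697 bp from any TSS, on arm 3L between bab1 and bab2, paralogous BTB-domain factors of limb and ovary development. It lay only 850 bp from the end of bab2 and had a signal of 176.8. Of the 10 farthest summits, 4 lay in the gap of NijA (at 31934 to 36625 bp), 2 of the others in that of vvl (33873 and 26963 bp), and the rest between Pld and lncRNA:CR46075 (36764 bp), Aps and lncRNA:CR45248 (27600 bp) and lncRNA:CR45229 and CG16894 (26752 bp). The limit of 1000 bp cut through similar values. The 3 summits just outside it lay 1027 bp from lncRNA:CR42719 (signal 429.5), 1029 bp from ex (228) and 1033 bp from ph-d (458.3), and the 3 entries just inside it lay 994 bp from RabGGTa (348.9), 972 bp from CG4733 (408.5) and 967 bp from CG9498 (480.8).

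Density differed between arms. Over all arms there were 19.0 distal intergenic peaks per Mb of distal intergenic sequence (exact Poisson 95% interval 17.6 to 20.5). Arm 3L had the most peaks, 226, and the highest density of the large arms, 27.1 per Mb (23.7 to 30.8), followed by 2L with 23.3 (19.6 to 27.4), 3R with 19.4 (16.3 to 23.0), X with 17.2 (13.7 to 21.3) and 2R with 12.7 (10.2 to 15.6). The interval of 3L lies above those of 3R, X and 2R and overlaps that of 2L. Chromosome 4 held 4 (18.4 per Mb, 5.01 to 47.1). The Y held none in 2.29 Mb (Poisson interval up to 1.61 per Mb), but no entry of the whole set lay on the Y, in any location class. Its sequence is part of the 19.0 per Mb of all arms.

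Peaks were sparse in the widest gaps between genes. Density was 43.0 per Mb (35.8 to 51.1) in gaps of up to 5000 bp, 28.9 (24.3 to 34.0) from there to 10000 bp, 27.0 (23.5 to 30.9) up to 20000 bp, 18.9 (16.1 to 21.9) up to 50000 bp and 3.35 (2.30 to 4.70) above that. In short gaps, the sequence counted lies close to the limit of 1000 bp from a TSS. Of the 80 gaps above 50000 bp, 11 held a peak. Only unknown bases were left out of the sequence counted, and the part of repeats in these densities was not tested. By the direction of the flanking genes, density was 25.1 per Mb between genes that point away from each other (167 peaks). It was 17.7 between genes that point toward each other (172) and 18.9 between genes in tandem (340). No intervals were computed for these densities by direction, and gap widths were not matched.

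Distal intergenic peaks came in groups within some gaps. Of 4851 gaps with distal sequence, 451 held a distal intergenic peak, 318 of them a single one and 11 at least 5. For 351 peaks (51.7%, 47.9 to 55.4) another distal intergenic peak lay within 10 kb. Any other entry of the set lay within 10 kb for 480 (70.7%, 67.2 to 74.0), against 79.4% of all entries.

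The gap with the most, 11 peaks, was the 75 kb between NijA and CG43245 on 3L, and 8 of the 11 were strong in both libraries. They lay 38423 to 72916 bp from NijA, all in the part of the gap toward CG43245, with signals from 132.6 to 1059. Next came the 70.5 kb between vvl, a POU-homeodomain factor of trachea and nervous system, and lncRNA:CR45115, with 8 peaks from 2652 to 66398 bp past vvl and signals of 125.2 to 345.2. The 33.0 kb between tRNA:Ile-TAT-1-2 and CG13898 held 7, with the strongest (751.4) at 10875 bp from the tRNA gene. The 20.9 kb between lncRNA:CR44603 and lncRNA:CR45695 held 6, among them the strongest of all. The gap of 19.1 kb between lncRNA:CR44363 and CG7560 also held 6 (147.3 to 606.2), as did the 17.8 kb between scyl, an inhibitor of TOR signalling, and lncRNA:CR44720 (161.4 to 463.4), where all lay within 5501 bp of scyl. A further 5 gaps held 5 each, namely 3 on arm 3L and 1 each on 2L and 3R. The pair of them with the highest summed signal lay between lncRNA:CR45411 and lncRNA:CR43785 (149.3 to 602) and between lncRNA:CR45251 and CG6163 (125.6 to 529.8). Between 3 and 8 peaks of each of these 8 gaps were strong in both libraries.

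**Figure D3:**
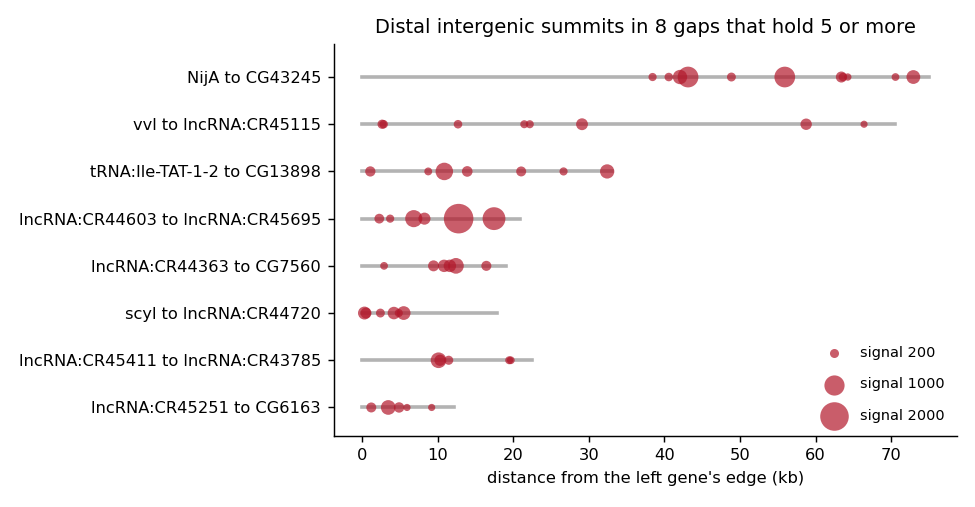
Position of distal intergenic summits (circles, area proportional to the signal) along the 6 gaps that hold at least 6 of them and 2 of the 5 gaps that hold 5 (those with the highest summed signal), as distance in kb from the edge of the left gene (x axis); grey bars span each gap. The 11 summits between NijA and CG43245 all lie 38423 bp or more from NijA, and the 6 next to scyl lie within 5501 bp of it.

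Summits sat in short A+T-rich stretches with G+C-richer DNA on both sides. The mean A+T share was 64.7% ± 6.51 (SD over 679 windows of 100 bp on either side) at the summit and 59.3% ± 6.48 in windows centred 1000 bp to either side, a difference of 5.41 percentage points. That difference was 4.34 points for the strongest distal intergenic entries of replicate 1 and 5.94 for those of replicate 3. In bins of 25 bp the share reached 67.3% at the summit and dropped below the distant level on both sides, to 54.8% at 325 to 350 bp on the left and 54.5% at 250 to 275 bp on the right. The mean was 55.1% over 200 to 350 bp from the summit and 59.0% over 500 to 1500 bp. Peaks deep inside genes had a profile of the same shape, with 67.1% at the summit, 56.1% over 200 to 350 bp and 59.1% beyond. Around summits within 500 bp of a TSS the highest bin was 64.5%, and the 56.6% over 200 to 350 bp was not below the 55.3% beyond. Few windows were mostly repeats: 28 (4.12%) were at least 50% soft-masked as repeats in the reference, against 3.85% of all entries. On average 21.6% of a window was soft-masked (21.2% over all entries). In an annotated transposon lay 2 summits (0.295%, against 0.248% of all entries).

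**Figure D4:**
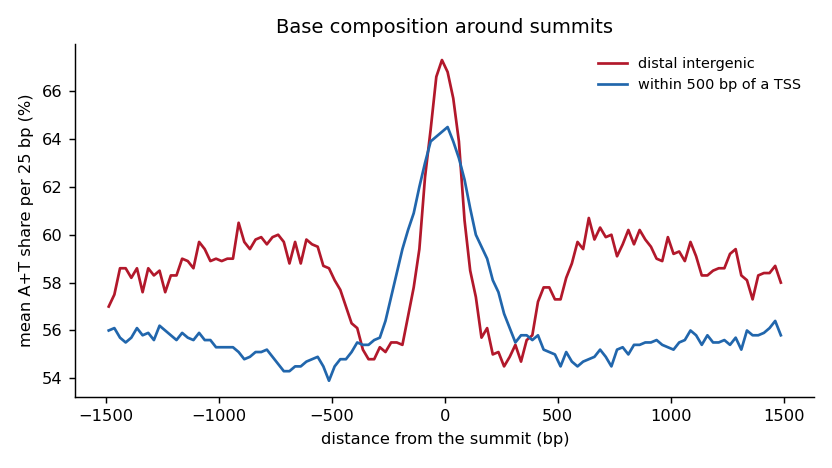
Mean A+T share per 25 bp (y axis, percent; the axis does not start at 0) against distance from the summit in bp (x axis) for 679 distal intergenic peaks (red) and 2848 peaks within 500 bp of a TSS (blue). Distal intergenic peaks reach 67.3% at the summit and drop to 54.5% before returning to about 59.0%.

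The core of the Bicoid site was not more frequent at distal intergenic summits than in their flanks. Counted on both strands, TAATCC occurred in 34 of 679 summit windows (5.01%, 3.61 to 6.92) and in 99 of 1358 flank windows (7.29%), a difference of -2.28 percentage points (-4.34 to 0.00712). Over the whole set it occurred in 6.74% of summit windows, and within 500 bp of a TSS in 7.37%, which is above the distal intergenic share by more than the counting error (difference -2.37 points, -4.10 to -0.255). That difference rested on replicate 3 and on the window: it was -0.870 without that library, -1.07 with 50 bp and -2.67 with 200 bp on either side, and in each case the interval reached 0. The longer TAATCCC occurred in 6 windows (0.884%, flanks 1.47%, all entries 1.40%). Of 12670 occurrences of TAATCC in distal intergenic sequence, 38 (0.300%, 0.219 to 0.411) lay within 100 bp of a distal intergenic summit, where 0.382% of that sequence lies. The A+T share also differed between summit and flank windows (64.7% and 59.3%), and its part in this and the other word shares was not tested.

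Words of the promoter factors DREF and M1BP were rarer at distal intergenic summits than at those near a TSS. TATCGATA, the site of DREF, occurred in 0.736% of distal intergenic windows (5 of 679) and 7.30% of windows within 500 bp of a TSS (difference -6.57 points, -7.67 to -5.24; all entries 3.63%). GGTCACAC, from the site of M1BP, occurred in 0.295% against 5.09% (-4.80, -5.69 to -3.72; all entries 2.59%). Both words were also rare at peaks deep inside genes (0.316% for TATCGATA and 0.475% for GGTCACAC). The E-box CAGCTG, bound by many basic helix-loop-helix factors, occurred in 3.98% against 11.7% (-7.72, -9.46 to -5.64; all entries 8.61%), and its share at distal intergenic summits was also below that in the flanks (7.66%, difference -3.68, -5.65 to -1.51). CACGTG, the E-box of Myc, was likewise rarer at summits (1.03%) than in flanks (2.58%, difference -1.55, -2.67 to -0.248; all entries 1.77%). At peaks deep inside genes both E-boxes were below the flanks as well (CAGCTG 6.28% and 7.96%, CACGTG 1.11% and 2.40%). TTTATG, a word of sites of the posterior factor Caudal, was more frequent than near a TSS (25.3% against 20.3%, difference 5.04, 1.56 to 8.73; all entries 22.5%) but not than in the flanks (23.6%). TATAAA, the TATA box word, occurred in 35.9% of summit windows and 24.3% of flank windows (difference 11.6, 7.40 to 15.9), against 35.3% of all entries.

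The remaining words differed from their flanks by less than the counting error. CAGGTA, the site of the pioneer factor Zelda, was in 5.15% of summit windows and 3.98% of flank windows (all entries 3.98%). GAGAGAG, bound by GAGA factor, was in 2.21% and 3.02% (all entries 3.15%), and GATAAG, bound by factors with GATA-type zinc fingers, in 8.84% and 8.69% (all entries 10.9%). TAATTA, a general homeodomain site, was in 17.4% and 15.5% (all entries 17.4%), and the dinucleotide repeat CACACACA in 3.24% and 4.20% (all entries 3.30%).

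The word CACTGAGA was far more frequent at distal intergenic summits than beside them. It was found by counting the 1338 words of 8 letters present in at least 15 of the 679 windows, so its share there is a description: 63 windows (9.28%, 7.32 to 11.7) against 10 of 1358 flank windows (0.736%), and 3.88% of all entries. Entries not used for that count gave the word too. Among distal intergenic entries of the pooled relaxed list outside the thresholded set it was in 162 of 5558 summit windows (2.91%, 2.50 to 3.39) and 0.792% of flank windows, and among peaks deep inside genes in 107 of 1896 (5.64%, 4.69 to 6.77) and 0.475%. It was in 1.76% of windows within 500 bp of a TSS (flanks 0.386%). The 63 distal intergenic peaks with the word lay in 63 different gaps and none in an annotated transposon; their median signal was 194, and that of the other 616 was 191.5. They were strong in replicate 3 in 61 cases and in replicate 1 in 32, so that 96.8% and 50.8% compare with 90.6% and 64.9% of peaks without the word.

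The position and strand of CACTGAGA relative to the summit were not used to find it. In the 63 windows it occurred 68 times. To the left of the summit 30 of 31 occurrences were on the plus strand, and to the right 35 of 37 were on the minus strand. The summit thus lay on the 3′ side of the word, counted from the word's middle, in 65 of 68 occurrences (95.6%, 87.8 to 98.5). The median distance from the word to the summit was 58.5 bp (quartiles 38.5 and 79). Peaks deep inside genes showed this in 106 of 111 occurrences (95.5%, 89.9 to 98.1) at a median of 59 bp. With the summits of each library, the share was 95.1% for the strongest distal intergenic entries of replicate 3 (82 occurrences) and 96.8% for those of replicate 1 (31 occurrences). The 5 sequences printed above follow this rule in 4 cases. Read on its own strand, the word was followed by A or G and then AAA in 54 of 68 occurrences (79.4%).

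The extension by A or G and then AAA was read off these occurrences, so its share at distal intergenic peaks is a description. Distal intergenic sequence holds CACTGAGA 1204 times, and 70 of these (5.81%, 4.63 to 7.28) lay within 100 bp of a distal intergenic summit, a zone that covers 0.382% of that sequence. For the 439 occurrences followed by A or G and then AAA the share was 12.8% (56, 9.96 to 16.2), and for the 765 others 1.83% (14, 1.09 to 3.05). Away from these summits, the occurrences within 100 bp of a distal intergenic summit of the pooled relaxed list outside the thresholded set were 115 of 383 with the extension (30%, 25.7 to 34.8) and 50 of 751 without it (6.66%, 5.09 to 8.67). AGATGGCG, found by the same count of words, was in 17 windows (2.50%, 1.57 to 3.97), against 0.221% of flank windows and 1.62% of all entries. This share is a description too. Among distal intergenic entries of the pooled relaxed list outside the thresholded set, it was in 0.918% of summit windows and 0.477% of flank windows. Of the 17 peaks, 14 were strong in both libraries (82.4%), against 54.8% of peaks without the word and 69.2% of all entries. AGATGGCG did not share the side of CACTGAGA: the summit lay on the 3′ side of its middle in 6 of 18 occurrences (33.3%, 16.3 to 56.3). At peaks deep inside genes the summit did so in 9 of 32 (28.1%, 15.6 to 45.4), and within 500 bp of a TSS in 23 of 49 (46.9%). The 18 occurrences are too few to say whether the word has a side of its own at distal intergenic peaks.

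**Figure D5:**
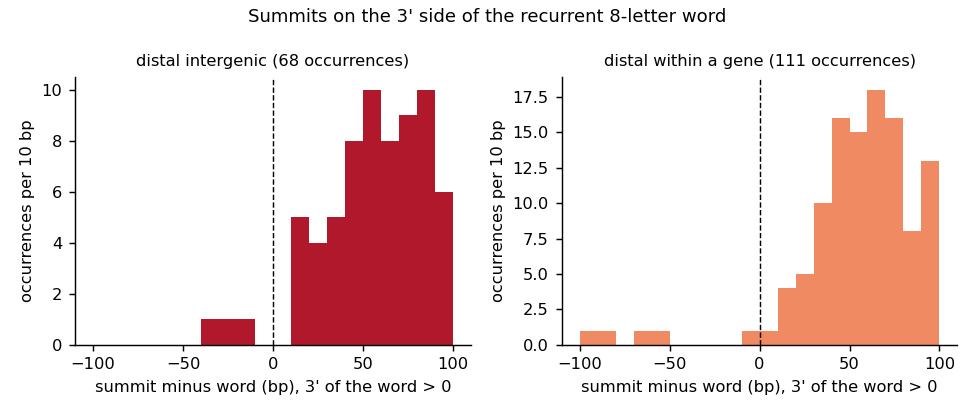
Distance in bp from the middle of CACTGAGA to the summit (x axis), for 68 occurrences at distal intergenic peaks (left) and 111 at peaks deep inside genes (right). The distance is counted along the strand on which the word reads CACTGAGA, so that values above 0 lie on its 3′ side. Bars count occurrences per 10 bp within 100 bp of the summit. Of the 68, 65 lie above 0, with a median of 58.5 bp.

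Distal intergenic peaks were flanked by 851 genes, of which 601 are protein-coding (4.30% of 13968 protein-coding genes). Of the protein-coding genes next to any distal intergenic sequence, 10.3% bordered a peak. Of the 601, 112 (18.6%) also had an entry within 500 bp of a TSS, against 20.8% of protein-coding genes that border distal sequence without a peak and 23.0% of all protein-coding genes. Of the flanking sides, 66.7% were protein-coding genes and 31.2% noncoding RNA genes. A gene named as a long noncoding RNA lay on at least 1 side of 339 peaks (49.9%). Gaps next to long noncoding or antisense RNA genes held 352 of the peaks and 13.9 Mb of the 35.7 Mb of distal intergenic sequence. The flanking gene is a matter of position: no list shows which gene, if any, a peak acts on.

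Of 23 genes known as Bicoid targets, 10 (43.5%) flanked a distal intergenic peak, beside 4.30% of all protein-coding genes. Of the 23, 21 border distal sequence, and the gaps next to them held 31.2 peaks per Mb (18.2 to 50), an interval that includes the 19.0 of all arms. They were flanked by 17 peaks, with signals from 127.4 to 921.4. All 17 were strong in replicate 3 but 7 in replicate 1, where 4 had no entry at all, and 1 of the 17 held TAATCC.

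The strongest peak next to Bicoid targets (921.4) lay between slp1 and slp2, forkhead factors of head and segment patterning, 5425 and 4316 bp away, with signals of 229.4 in replicate 1 and 700.5 in replicate 3. Another peak lay 743 bp from slp1 (195.4) and had no entry in replicate 1. Peaks lay 10318 and 11230 bp from ems, a head gap gene (376.7 and 307.6), with 124.9 and 124.8 in replicate 1 and 242.1 and 182.5 in replicate 3. On either side of oc, the head gap gene orthodenticle, peaks lay at 2776 bp (299.1) and 6082 bp (293.4), and the first had no entry in replicate 1. Near kni, a gap gene of the nuclear receptor family, they lay at 16224 bp (307.9) and 15346 bp (170.7), closer to cmpy on the far side. The forkhead gene croc had 3, at 9639, 20368 and 3437 bp (261.6, 195.05 and 170.6), the last with no entry in replicate 1. The Sox gene D had a pair at 1179 and 2854 bp (228.7 and 161.9), and hry, the pair-rule gene hairy, had a pair at 10641 and 7404 bp (186 and 146). The peak next to tll, a terminal gap gene, was weak (129.6, at 11293 bp), as was that next to run, a pair-rule gene (127.4, at 24551 bp), which was the one with TAATCC. In the bcd region, a peak lay 1547 bp from bcd (264.6), with 93.2 in replicate 1 and 169.2 in replicate 3, and a weaker one 835 bp from zen (164.9) had no entry in replicate 1.

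Among other regulators, 23 of 79 homeobox genes (29.1%, beside 4.30% of all protein-coding genes) flanked a peak, led by zfh2 (438.7), ems and vvl. The number was 11 without replicate 3, 31 without replicate 1 and 14 when only the gene with the nearer edge counted. The gaps next to them held 27.9 peaks per Mb (19.9 to 38.2). Other developmental transcription factors did so in 23 of 68 cases (33.8%), led by bin (980.6), slp1 and slp2, with 38.6 per Mb (27.3 to 53.0), and signalling ligands in 10 of 36 (27.8%, 6 by the nearer edge only), with 42.0 per Mb (22.4 to 71.8). These intervals lie above 19.0, an average that includes gaps over 50000 bp, at 3.35 per Mb. Narrower gaps held 18.9 to 43.0 per Mb by width, and the widths were not matched in these comparisons. The vvl gap alone held 8 of the 39 peaks next to homeobox genes. The leading ligand genes were upd1, a JAK/STAT ligand (302.6), and the Wnt genes wg and Wnt4, which share a gap with 4 peaks (288.5 for the strongest, with 24.96 in replicate 1 and 260.15 in replicate 3). Of the genes of basic helix-loop-helix factors, 2 of 32 flanked a peak (6.25%, dysf at 174.6 and tx at 149.2), and of the nuclear receptors 3 of 21 (14.3%, kni, Eip75B at 133.3 and tll), beside 4.30% of all protein-coding genes. Their densities of 27.5 (3.33 to 99.2) and 22.8 per Mb (6.20 to 58.3) rest on few peaks.

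Genes of neuronal adhesion flanked peaks in 7 of 68 cases (10.3%, beside 4.30% of all protein-coding genes), led by dpr17 (816.4), robo2 (349.2) and DIP-delta (229.2). Of the adhesion genes that border distal sequence, 11.9% flanked a peak, near the 10.3% of all such protein-coding genes. The gaps next to genes of neuronal adhesion held 7.73 peaks per Mb (3.53 to 14.7), below the 19.0 of all arms. Gap widths were not matched here either. Chemoreceptor genes did so in 8 of 185 (4.32%, beside 4.30% of all protein-coding genes), led by Gr89a (479), Or85b (393.1) and Gr93a (258), with 12.1 per Mb (5.83 to 22.3). Cuticle protein genes of the Cpr family did so in 5 of 71 (7.04%, 26.4 per Mb), led by Cpr76Ba (1035), Cpr51A (214.4) and Cpr65Ec (209.6). Among the Cpr genes that border distal sequence the share was 11.1%, also near 10.3%. Cytoplasmic ribosomal protein genes did so at a share near that of all protein-coding genes too, in 4 of 92 (4.35%, 9.13 per Mb, 2.49 to 23.4), led by RpLP0 (222.2), RpL17 (191.8) and RpL22-like (168.2), and mitochondrial ribosomal protein genes in 0 of 73, which border only 0.00619 Mb of distal sequence.

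Noncoding genes differed by kind. Of all genes but transposons, coding ones included, 4.66% flanked a peak, and 11.6% of those that border distal sequence did. Of 295 tRNA genes, 14 (4.75%) flanked a peak, a share near that of all genes. Only 68 border distal sequence, and 20.6% of these flanked a peak. The gaps next to them held 47.1 peaks per Mb (29.9 to 70.7), above the 19.0 of all arms. That interval includes the 43.0 of all gaps up to 5000 bp, and widths were not matched. Of the 23 peaks next to tRNA genes, 7 lay in the gap between tRNA:Ile-TAT-1-2 and CG13898. The tRNA genes were led by tRNA:Ser-GCT-2-2 (1340), tRNA:Ile-TAT-1-2 (751.4) and tRNA:Phe-GAA-1-7 (542.4). Of 2448 long noncoding and antisense RNA genes, 229 (9.35%) flanked a peak, led by lncRNA:CR44603, lncRNA:CR45695 (both 2146) and lncRNA:CR45731 (1035). That was 19.0% of the 1204 that border distal sequence. Their gaps held 25.4 per Mb (22.8 to 28.2), also above 19.0 but inside the range of gaps up to 50000 bp (18.9 to 43.0). Of 260 microRNA genes, only 19 border distal sequence, and only mir-219 (158.5) flanked a peak, with 2.45 per Mb (0.0621 to 13.7).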

How the data were processed

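ChIP-seq of whole embryos of the line 1T-GFP was analysed from the peak lists the authors deposited for the dm6 build: relaxed lists for replicates 1 and 3 and for both pooled (30000 entries each), and the set of 6054 entries that passed the irreproducible discovery rate (IDR) threshold, per the deposited file descriptions. The labels give 1 group, which holds both libraries. The signal value the authors deposited for each peak is a score without a stated unit, comparable within a list only, and the summit offset is the authors' other deposited value that was used. Aligner, peak caller and parameters: not given in the sources used here. The lists hold no counts, so the depth per library and its precision are unknown. Lists on dm3 were not used.

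Coordinates are counted from 1. Summits were placed with the Ensembl annotation BDGP6.54 (release 115) without transposons, and sequence was read from RefSeq's Release 6 genome, the same assembly as dm6. Distal intergenic sequence excludes unknown bases. Flanking genes are the nearest gene on each side of the summit, and distances run from the summit to the gene's edge. The peaks, words, gene lists and the rule for named genes were chosen with earlier results of these data known. Named genes are those next to the 20 peaks of highest signal, the 10 farthest from a TSS, the 8 gaps with most peaks (ties by summed signal) and the 3 summits on either side of the 1000 bp limit, the 3 genes per list with the strongest peak, and every listed Bicoid target next to a peak. Genes next to peaks printed as sequence or mentioned for bcd and zen were added after their values were seen. Of the list symbols, ets21C and Dl were not matched in the annotation.

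Words were counted on either strand in 201 bp around the summit and in windows of that size centred 1000 bp to either side. CACTGAGA, its extension and AGATGGCG were chosen after seeing the counts of 8-letter words. Shares carry Wilson 95% intervals, differences of shares Newcombe 95% intervals and densities exact Poisson 95% intervals. The computations used Python 3.11.15, numpy 2.4.6, pandas 2.3.3 and scipy 1.17.1 and were tested on simulated data. Alternatives changed the TSS limit, the genes counted, the overlap, the windows, the library lists and the cluster distance.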

Additional observations from a re-analysis of the deposited data

How the results depend on the processing

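No paired analysis was possible because both libraries belong to 1 group. The distal intergenic share of 11.2% became 13.7% with a TSS limit of 500 bp, 8.42% with 2000 bp, 14.8% with protein-coding genes only, 20.8% over the pooled relaxed list and 8.85% over the strongest 3027 entries. With 1 library left out it ran from 8.31% (without replicate 3) to 13.6% (without replicate 1). Density per Mb, 19.0, became 21.6 and 16.4 with limits of 500 and 2000 bp, 22.4 with protein-coding genes only, 21.7 with transposons counted as genes, and ran from 14.1 (without replicate 3) to 23.0 (without replicate 1). Requiring a reciprocal overlap of at least 50% lowered the shares that were strong in replicate 1, replicate 3 and both to 51.8%, 79.5% and 39.8%, and taking 3027 entries per library gave 28.3%, 49.5% and 21.8%. The A+T difference of 5.41 points was 7.45 with windows of 50 bp on either side and 1.64 with 200 bp, and 4.34 to 5.94 with 1 library left out. The share with another distal intergenic peak within 10 kb, 51.7%, was 38.1% within 5 kb and 62.4% within 20 kb, and ran from 39.8% to 60.6% with 1 library left out.

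Of 13 words, 3 differed from the flanks beyond the interval; the number was 6 with flanks 2000 bp away, 6 with a TSS limit of 500 bp, and 3 to 8 with 1 library left out. TATAAA kept its direction and its side in 9 of 9 alternatives. TAATCC was below the flanks in 9 of 9, from -3.98 to -0.298 points, and its whole interval lay below 0 in 4 of 9. CAGCTG and CACGTG stayed below the flanks, with smallest differences of -2.06 and -1.03 points, and the interval reached 0 in 2 of 9 for each. Against peaks within 500 bp of a TSS 5 words differed, and 8 did with windows of 200 bp on either side and 5 to 7 with 1 library left out. TATCGATA, GGTCACAC, CAGCTG and TTTATG kept their side in 5 of 5 alternatives, and TAATCC in 2 of 5, with -0.870 points without replicate 3. Genes of the 7 lists of transcription factors, Bicoid targets, ligands and neuronal adhesion that lay next to a peak, 68 in all, became 44 when only the gene with the nearer edge counted, and ran from 45 (without replicate 3) to 79 (without replicate 1); the other lists were not recomputed. In alternatives chosen after seeing the data, the difference for CACTGAGA, 8.54 points, ran from 2.95 (windows of 50 bp on either side) to 11.5 (200 bp), was 8.83 without windows that are mostly soft-masked, and was 4.97 without replicate 3 and 8.70 without replicate 1. The causes of these changes were not tested. The unknown depth limits any statement on weak peaks.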
